A study of Homo sapiens with 15 samples.

Results

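Chaperones of the cytosol and the mitochondria were followed in MOLM-14 cells, an established human acute myeloid leukemia line, through 42 named genes. The members were taken by gene symbol from the 57964 entries of the RNA-seq table, and all 42 were present. The rule uses no measured value, but the list was drawn up with earlier results of these data known, so its counts beside those of all genes are a description. For description they were divided by function into HSP70 and its exchange factors (9 genes), HSP90 and its co-chaperones (9), J proteins (8), TRiC and prefoldin (9), mitochondrial chaperones (4), the small heat shock protein HSPB1, and the heat shock factors HSF1 and HSF2. TPM (a length-corrected share of the RNA of a library) were available for 8 libraries. In one experiment cells were electroporated with 100 nM in vitro-transcribed RNA encoding GFP or the nuclear receptor NR4A1. In the other, cells that had not been electroporated received DMSO (vehicle) or 10 uM dihydroergotamine (DHE), an ergot alkaloid in clinical use. All cells were harvested after 6 hours, with 2 libraries in each of the 4 groups, and the labels do not say whether the duplicates were separate cultures. Where they were not, the p-values below measure technical spread only. MED1 and NR4A ChIP-seq libraries of the same study were not analysed here.

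Chaperones bind proteins that are unfolded or half-made and help them reach or regain their shape. HSP70 proteins hold short exposed stretches of a client in an ATP cycle that J proteins start and exchange factors reset. HSP90 receives clients that are already partly folded, such as kinases and steroid receptors, with the help of a set of co-chaperones. TRiC, a closed double ring, folds actin and tubulin, which prefoldin delivers to it. In mitochondria HSPA9 pulls proteins through the import channel and the HSPD1 and HSPE1 chamber folds them. Most of these genes are active in every growing cell, and a subset is raised further by the transcription factor HSF1 when proteins are damaged.

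HSF1 recognises inverted repeats of the pentamer NGAAN, and MYC, whose RNA is lowered by both treatments in this study, recognises the E-box CACGTG. Promoter windows of 300 bases (250 before and 50 after the start site) were found in the RefSeq table of build GRCh38.p14 for 38 of the 42 members. Those of HSPA14, FKBP4, PFDN2 and HSF1 were not used here. A single window was searched per member, the first listed for its symbol, so matches at another start site of a member would be missed. The share over all windows counted every window, without such a choice. Searched on both strands, the pair of pentamers (GAANNTTC or TTCNNGAA) stood in 12 of the 38 windows, or 31.6%, compared with 13.5% of all 35116 windows of the table. The stricter form, in which one more alternating pentamer follows and which therefore contains the shorter one, stood in 4 of 38 (10.5%, compared with 0.49% of all windows). These 4 belonged to HSPA8, CHORDC1, DNAJA1 and DNAJB6. CACGTG stood in 4 of 38 (10.5%, compared with 7.26%), namely HSPA9, HSPD1, HSPE1 and HSF2. A match is a string of letters and does not show that a factor was bound.

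Stretches that carry these matches are printed 5′ to 3′ on the strand of the gene, because the members they belong to responded differently below. Capitals mark pentamer pairs (with any further pentamer that alternates) or CACGTG. HSPA8, the main cytosolic HSP70, holds both 3-pentamer matches of its window in the stretch from 250 to 30 bases before its start, at chr11:123062166-123062386 on the minus strand. CHORDC1, an HSP90 co-chaperone, holds an array of alternating pentamers within the 90 bases before its start, at chr11:90223050-90223139 on the minus strand. The DNAJB6 stretch lies at chr7:157336854-157336914 on the plus strand. HSPA1B, a heat-inducible HSP70, holds only a single pair at chr6:31827608-31827668 on the plus strand.
HSPA8: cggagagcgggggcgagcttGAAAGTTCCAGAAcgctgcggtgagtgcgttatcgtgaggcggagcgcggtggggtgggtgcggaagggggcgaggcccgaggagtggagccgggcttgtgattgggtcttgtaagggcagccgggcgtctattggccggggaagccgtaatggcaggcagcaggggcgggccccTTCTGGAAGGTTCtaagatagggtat
CHORDC1: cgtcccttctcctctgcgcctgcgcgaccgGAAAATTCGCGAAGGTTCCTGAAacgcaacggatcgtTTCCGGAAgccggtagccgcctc
DNAJB6: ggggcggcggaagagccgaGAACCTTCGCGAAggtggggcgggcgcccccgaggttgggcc
HSPA1B: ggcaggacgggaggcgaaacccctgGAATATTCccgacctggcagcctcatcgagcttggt

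CACGTG stood in the windows of 3 of the 4 mitochondrial chaperones and not in that of TRAP1, and HSPA9 also held a pentamer pair, which spans its start site and lies only partly in the stretch shown. HSPD1 and HSPE1 are transcribed away from each other from start sites 105 bases apart on chromosome 2. The 104 bases between their starts, chr2:197500275-197500378, are shown on the strand of HSPE1 and hold a single CACGTG, which is therefore counted in both windows. In HSPA9 the motif lies within the 80 bases before the start, at chr5:138575402-138575481 on the minus strand.
HSPE1 and HSPD1: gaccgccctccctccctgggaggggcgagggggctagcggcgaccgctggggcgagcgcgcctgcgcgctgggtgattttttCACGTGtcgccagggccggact
HSPA9: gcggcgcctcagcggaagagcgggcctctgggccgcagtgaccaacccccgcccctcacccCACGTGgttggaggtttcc

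All 8 libraries sum to the same TPM total, so depth and counting error are unknown, and levels below are TPM divided by a factor per library (0.887 to 1.11), called scaled TPM. NR4A1 RNA stood at 719 and 674 TPM in the 2 libraries that received it, compared with 1.27 to 2.84 TPM in the other 6, which matches the labels. In log2 units MYC RNA fell by 0.92 after NR4A1 electroporation (adjusted p = 0.0017) and by 3.32 after DHE (adjusted p = 3.33e-05). All 10 markers of myeloid leukemia cells were expressed, with a summed level of 435 to 585 TPM. T and B lymphocyte markers summed to at most 0.542 TPM and erythroid markers to at most 0.486 TPM, with CD2, HBB, HBA1 and ALAS2 at 0. Epithelial and fibroblast markers summed to 17.8 to 22.0 TPM. Of these, KRT18 stood at 14.2 to 19.1 TPM and KRT8 at 1.58 to 3.36 TPM. The others were at 0.441 TPM or less, with COL3A1 at 0. GFP RNA replicate 1 and DHE replicate 2 stood apart from their partners. A fixed list held ribosomal RNA and other transcripts (RN7SL, RN7SK, RMRP, RPPH1 and MTRNR2L entries), called the listed ribosomal transcripts below. It took 23.8% of the TPM of GFP RNA replicate 1, 30.1% of DHE replicate 2 and 34.9% to 39.3% elsewhere. With MIR663A and its neighbours, added after seeing the data, the share was 48.3% in GFP RNA replicate 1 and 35.5% to 39.9% in the other 7. MIR663A stood at 101455 TPM in GFP RNA replicate 1, at 24979 TPM in DHE replicate 2 and at 1353 to 6283 TPM elsewhere. DHE replicate 2 also had 13934 genes at 1 TPM or more, compared with 12902 to 13174 in the other 7.

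Together the 42 members made up 0.418% to 0.661% of the TPM of a library. HSPA8 was the most abundant, at 1348 and 1397 scaled TPM in the vehicle libraries, followed by HSP90AB1 at 763 and 737 and the TRiC subunit CCT5 at 488 and 481. In vehicle cells TRiC and prefoldin contributed 31.2% and 30.9% of the summed chaperone TPM, HSP70 and its exchange factors 26.7% and 27.5%, HSP90 and its co-chaperones 24.3% and 23.8%, and the mitochondrial class 12.3% and 12.5%. J proteins were scarce by comparison, at 3.72% and 3.68%. Among the HSP70 genes the constitutive HSPA8 far exceeded the inducible copies. HSPA1A, a heat-inducible HSP70, stood at 0.0972 to 0.388 TPM in every library and its near-identical neighbour HSPA1B, which starts 12195 bases away on chromosome 6, at 17.0 to 29.2 TPM. Reads of these copies can be assigned to either gene, so their sum is the safer value, and HSPA1A took 0.372% to 2.23% of it.

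**Figure D1:**
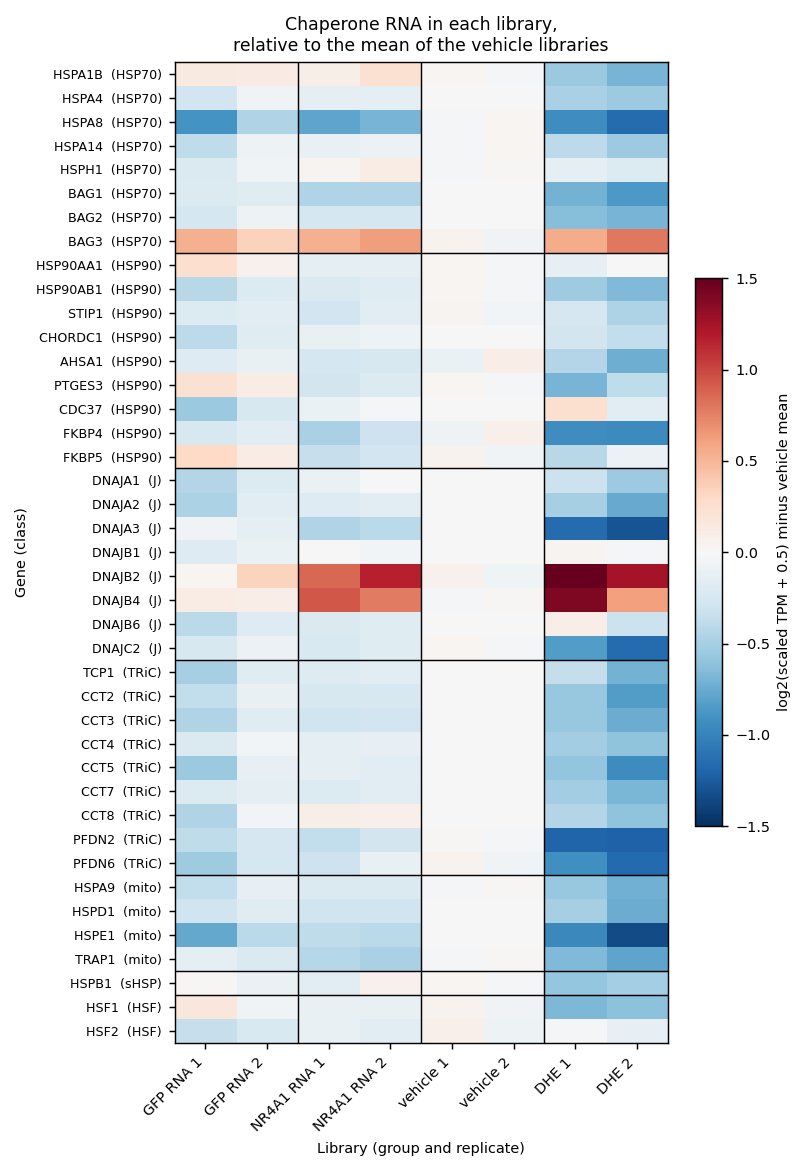
Heat map of 41 chaperone genes (rows, by class) in 8 libraries (columns, group and replicate); colour gives log2(scaled TPM + 0.5) minus the mean of the 2 vehicle libraries, from blue (lower) to red (higher), with the scale limited to 1.5 in either direction. Both DHE columns are blue for most rows, with BAG3, DNAJB2 and DNAJB4 red, and both GFP RNA columns lie below vehicle for 32 of the 41 genes.

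Members of every class but that of HSPB1, whose decrease stayed inside the fold limit, fell with DHE, and J proteins and BAG proteins moved in both directions. Of the 41 members that passed the filter of 1 TPM in at least 2 libraries (HSPA1A did not), 20 fell and 3 rose in DHE compared with vehicle libraries, by limma with both an adjusted p under 0.05 and more than a 1.5-fold difference. Among all 14367 genes tested, 10.1% were called lower and 9.07% higher. A further 11 members had an adjusted p under 0.05 with a smaller decrease, and 7 did not pass the test. The median log2 change of the members was -0.58, compared with 0.04 over all genes. In 33 of the 41 members both DHE libraries lay below both vehicle libraries, which held for 32.3% of all genes. In 3 members both lay above, compared with 37.6% of all genes. On TPM as deposited, without scaling, 32 lay below and 3 above. A bulk RNA measurement cannot separate a smaller share of cells that express a gene from less RNA in each cell. The summed level of all members was 6353 and 6358 scaled TPM in the vehicle libraries and 4282 and 3789 in the DHE libraries.

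The number of lower calls depended on DHE replicate 2. Without that library 12 members were called lower, of which 11 were among the 20. Calls were lost for HSPA1B, HSP90AB1, DNAJA2, CCT2, CCT3, CCT5, CCT7, HSPA9 and HSPD1, which had log2 changes of -0.77 to -0.59 with all libraries, and PTGES3 was gained. Across all 24 alternatives 9 of the 20 stayed called, namely HSPA8, BAG1, FKBP4, DNAJA3, DNAJC2, PFDN2, PFDN6, HSPE1 and TRAP1. On scaled TPM DHE replicate 2 was the lower of the DHE pair for 35 of the 41 members, whereas on TPM as deposited it was the lower for 16, so the order within the pair depended on the scaling. This library, with its higher MIR663A and larger number of detected genes, was the lowest of all 8 for 27 of 41 members on scaled TPM and for 7 on TPM as deposited. Across the 41 members, which are not independent, the difference between GFP duplicates and that between DHE duplicates (replicate 1 minus 2) had r = -0.56. The negative sign was not particular to chaperones. It was -0.42 over the 8961 more abundant genes (average level 5 or above) and -0.14 over all 14367 genes. Members lower in GFP RNA replicate 1 thus tended to be lower in DHE replicate 2. Without both of these libraries 14 members were called lower. The part of RNA composition in the decrease was otherwise not tested.

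**Figure D2:**
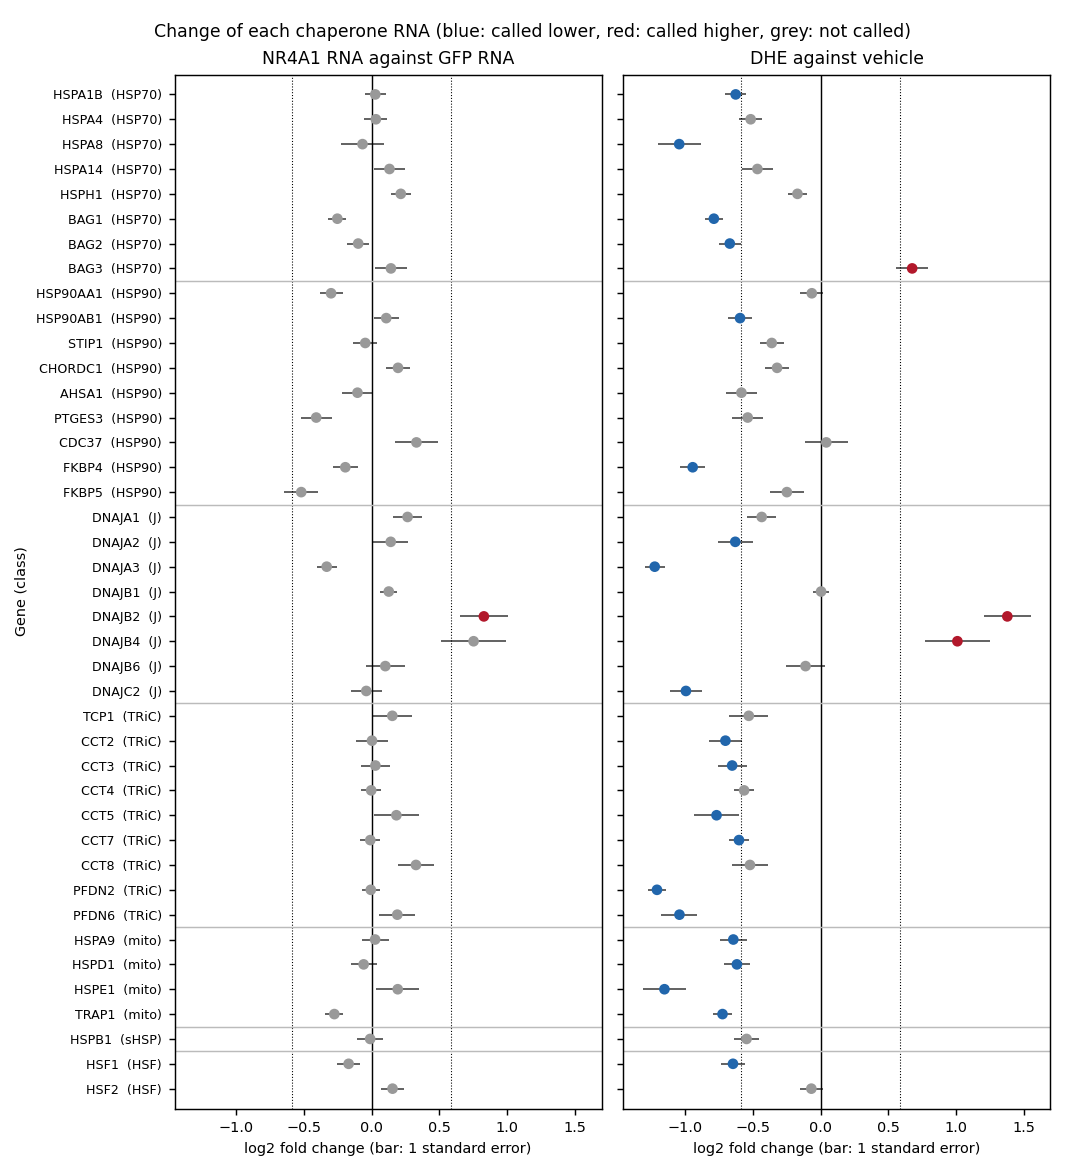
Log2 fold change of 41 chaperone genes (rows, by class) in NR4A1 RNA compared with GFP RNA libraries and in DHE compared with vehicle libraries; points are limma estimates, bars are 1 standard error, and dotted lines mark 1.5-fold. Blue and red points passed the test: 1 red point (DNAJB2) on the NR4A1 side, and 20 blue and 3 red on the DHE side.

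In the class of HSP70 and its exchange factors, 4 of 8 members tested fell with DHE and 1 rose. HSPA8 stood at 1348 and 1397 scaled TPM in vehicle and at 720.0 and 615 in DHE libraries, and fell by 1.04 ± 0.16 on the log2 scale (SE, n = 2 against 2, adjusted p = 0.0046). The DHE and vehicle libraries did not overlap, and HSPA8 showed the largest decrease of its class. HSPA1B read 26.2 and 25.3 in vehicle and 17.4 and 15.6 in DHE libraries, a change of -0.63 ± 0.08 (adjusted p = 0.0024). This heat-inducible gene was lower in both DHE libraries, and its call was lost without DHE replicate 2. HSPA1A was too low to test, at 0.0977 and 0.0957 scaled TPM in vehicle and 0.397 and 0.195 in DHE libraries. HSPA4 and HSPA14, an HSP110 exchange factor and an HSP70 associated with the ribosome, had changes of -0.52 and -0.47, under the fold limit (adjusted p = 0.0061 and 0.023). HSPH1, the other HSP110, read 78.0 and 79.7 in vehicle and 71.8 and 68.3 in DHE libraries, a change of -0.17 ± 0.07 that did not pass (adjusted p = 0.12).

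The BAG proteins, which release clients from HSP70 by promoting nucleotide exchange, moved in both directions. BAG1 read 73.1 and 73.7 scaled TPM in vehicle and 44.6 and 40.1 in DHE libraries (-0.79 ± 0.07, adjusted p = 0.00057). BAG2, an inhibitor of the ubiquitin ligase CHIP, read 9.49 and 9.50 in vehicle and 5.92 and 5.64 in DHE libraries (-0.67 ± 0.08, adjusted p = 0.0022). BAG3, which links HSP70 and small heat shock proteins to autophagy, read 3.61 and 3.31 in vehicle and 5.32 and 6.36 in DHE libraries (0.68 ± 0.12, adjusted p = 0.0078). In each case the groups did not overlap. The BAG3 call was lost without DHE replicate 2 and without vehicle replicate 2. BAG3 was also at 5.23 and 4.51 in GFP RNA libraries, so its vehicle level was the lowest of the 4 groups.

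In the class of HSP90 and its co-chaperones, 2 of 9 members fell and 0 rose with DHE, and 6 had an adjusted p under 0.05. The 2 cytosolic HSP90 genes differed. HSP90AB1, the constitutive form, read 763 and 737 scaled TPM in vehicle and 518 and 475 in DHE libraries (-0.59 ± 0.09, adjusted p = 0.0048), just past the fold limit, and its call was lost without DHE replicate 2 or vehicle replicate 1. HSP90AA1, the more inducible form, read 215 and 206 in vehicle and 193 and 210.4 in DHE libraries, which overlap (-0.06 ± 0.09, adjusted p = 0.60). The ratio of HSP90AB1 to HSP90AA1 within a library, which does not depend on scaling, was 3.54 and 3.57 in vehicle and 2.69 and 2.26 in DHE libraries. In NR4A1 RNA libraries it was 3.40 and 3.42, and in GFP RNA libraries 2.24 and 2.95.

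Among the HSP90 co-chaperones, FKBP4, an immunophilin of steroid receptor complexes, fell. It read 23.6 and 26.4 scaled TPM in vehicle and 12.8 and 12.6 in DHE libraries (-0.94 ± 0.09, adjusted p = 0.00088). Its relative FKBP5, itself a target of the glucocorticoid receptor, had a change of -0.25 that did not pass (adjusted p = 0.18). AHSA1, which stimulates the HSP90 ATPase, lay just inside the fold limit at -0.58 (adjusted p = 0.011). PTGES3 (p23), which stabilises the closed form of HSP90, had -0.54 (adjusted p = 0.015), STIP1 (HOP), which bridges HSP70 and HSP90, had -0.36 (adjusted p = 0.023), and CHORDC1 had -0.32 (adjusted p = 0.034). CDC37, which brings kinases to HSP90, had 0.04 ± 0.16 (adjusted p = 0.86). The class ranged from FKBP4, the lowest, to CDC37, the highest.

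The J proteins were split, with 3 of 8 members lower and 2 higher. DNAJA3 (TID1), the J protein of mitochondrial HSP70, read 34.8 in both vehicle libraries and 15.4 and 13.9 scaled TPM in DHE libraries (-1.22 ± 0.07, adjusted p = 0.00022), the largest decrease among all members. DNAJC2 (zuotin), which recruits HSP70 to the ribosome, read 24.3 and 23.2 in vehicle and 13.1 and 10.4 in DHE libraries (-0.99 ± 0.12, adjusted p = 0.0018). DNAJA2, a cytosolic partner of HSPA8, read 37.6 in both vehicle libraries and 26.4 and 22.0 in DHE libraries (-0.63 ± 0.13, adjusted p = 0.012). Its call was lost without either vehicle library or DHE replicate 2. DNAJA1 had -0.43, under the fold limit (adjusted p = 0.025).

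DNAJB2, whose product escorts ubiquitylated clients to the proteasome and is best known in neurons, read 1.66 and 1.48 scaled TPM in vehicle and 5.36 and 4.43 in DHE libraries (1.38 ± 0.17, adjusted p = 0.0024). DNAJB4 read 3.81 and 3.95 in vehicle and 11.1 and 6.22 in DHE libraries (1.01 ± 0.24, adjusted p = 0.021). Both DHE libraries were above both vehicle libraries for these genes, but the DNAJB4 duplicates differed by 0.78 on the log2 scale, the widest gap between DHE duplicates of any member. The DNAJB4 call was lost without either vehicle library. DNAJB1 (HSP40), a standard readout of the heat shock response, read 32.0 and 31.9 in vehicle and 32.8 and 31.3 in DHE libraries (0.00 ± 0.06, adjusted p = 0.98). DNAJB6, which holds aggregation-prone proteins in solution, had -0.11 ± 0.14 (adjusted p = 0.59).

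**Figure D3:**
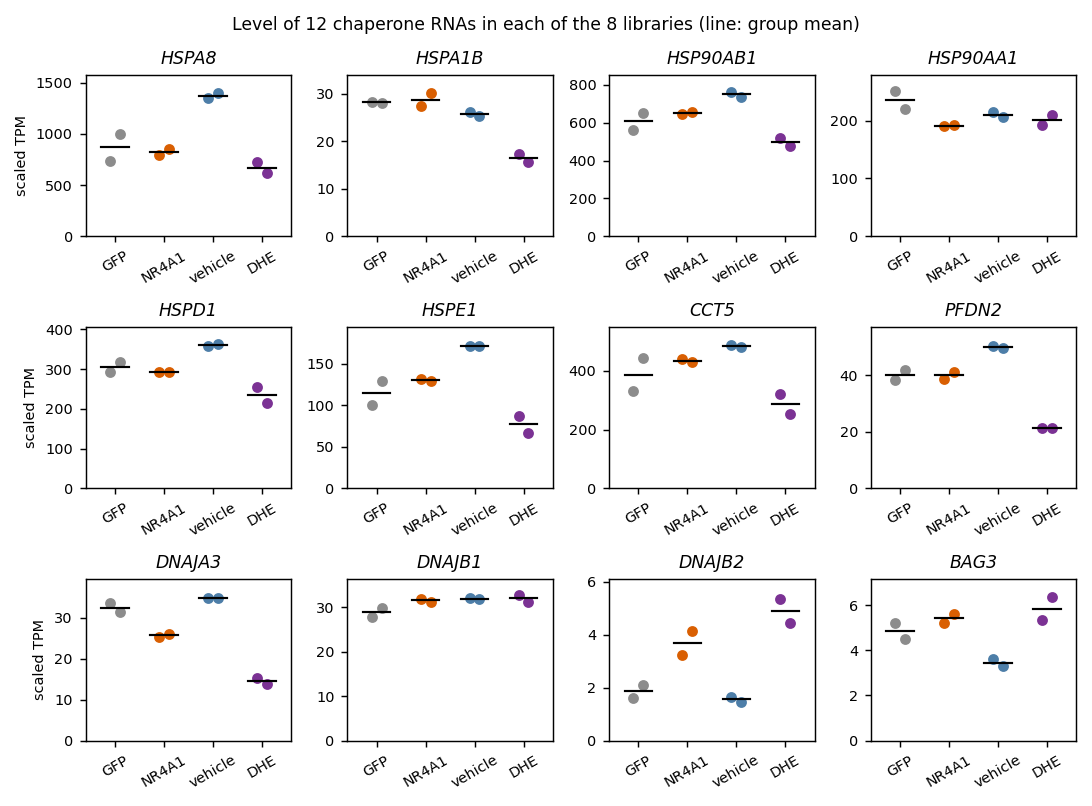
Scaled TPM (linear axes that start at 0) of 12 chaperone genes in the 8 libraries; each point is 1 library and each line a group mean of 2. DHE points lie below vehicle points for HSPA8, HSPA1B, HSP90AB1, HSPD1, HSPE1, CCT5, PFDN2 and DNAJA3, overlap them for HSP90AA1 and DNAJB1, and lie above them for DNAJB2 and BAG3.

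In TRiC and prefoldin, all 9 members had an adjusted p under 0.05 with DHE in the same direction, and 6 passed the fold limit. The 7 TRiC subunits among the members ranged in the vehicle group from CCT4, at 126 and 128 scaled TPM, to CCT5, so the RNAs of a complex that holds its subunits in equal number differed by 3.86-fold and 3.77-fold within a library. In DHE libraries this spread was 3.63-fold and 3.03-fold. CCT5 read 488 and 481 in vehicle and 320.4 and 252 in DHE libraries (-0.77 ± 0.17, adjusted p = 0.016). CCT2 read 262 and 263 in vehicle and 178 and 146 in DHE libraries (-0.70, adjusted p = 0.0069). CCT3 read 275 and 272 in vehicle and 185 and 163 in DHE libraries (-0.65, adjusted p = 0.0060). CCT7 read 166 in both vehicle libraries and 116 and 103 in DHE libraries (-0.60, adjusted p = 0.0020). TCP1, CCT4 and CCT8 lay inside the fold limit at -0.53, -0.56 and -0.52. All 4 subunit calls were lost without DHE replicate 2, and that of CCT5 also without either vehicle library. CCT6A, the subunit that is not a member, had -0.49 (adjusted p = 0.0045).

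The 2 prefoldin subunits among the members fell further than any TRiC subunit. Other prefoldin subunits were counted with the other pathway genes below and are not described singly. PFDN2 read 50.6 and 49.6 scaled TPM in vehicle and 21.5 and 21.3 in DHE libraries (-1.21 ± 0.07, adjusted p = 0.00018), with both duplicates close together. PFDN6 read 74.9 and 69.1 in vehicle and 37.8 and 31.8 in DHE libraries (-1.04 ± 0.13, adjusted p = 0.0024). The difference in size between these 2 subunits and TRiC was not tested.

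All 4 mitochondrial chaperones fell with DHE. HSPE1 (HSP10), the lid of the folding chamber, read 171 and 172 scaled TPM in vehicle and 87.6 and 67.2 in DHE libraries (-1.15 ± 0.16, adjusted p = 0.0033). HSPD1 (HSP60), the chamber itself, read 358 and 362 in vehicle and 256 and 215 in DHE libraries (-0.62 ± 0.10, adjusted p = 0.0049). These genes share the region printed above, yet their RNAs did not keep a fixed ratio. HSPD1 over HSPE1 was 2.09 and 2.11 in vehicle and 2.92 and 3.20 in DHE libraries, and the groups did not overlap. Reads of a readthrough transcript, HSPE1-MOB4 (4.72 to 10.9 TPM), overlap HSPE1.

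HSPA9 (mortalin), the HSP70 of mitochondria, read 180.3 and 185 scaled TPM in vehicle and 123 and 110.3 in DHE libraries (-0.64 ± 0.10, adjusted p = 0.0048). TRAP1, the mitochondrial HSP90, read 73.5 and 75.7 in vehicle and 47.0 and 43.0 in DHE libraries (-0.72 ± 0.07, adjusted p = 0.00082). With DNAJA3, which was counted with the J proteins, every mitochondrial member was lower in both DHE libraries. Without DHE replicate 2, HSPA9 and HSPD1 were no longer called, and HSPE1, TRAP1 and DNAJA3 still were.

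The small heat shock protein HSPB1 (HSP27), which holds unfolded proteins without ATP, read 64.6 and 61.8 scaled TPM in vehicle and 41.99 and 44.3 in DHE libraries (-0.55 ± 0.09, adjusted p = 0.0069), inside the fold limit. HSF1 read 30.9 and 28.8 in vehicle and 18.5 and 19.3 in DHE libraries (-0.65 ± 0.09, adjusted p = 0.0028). HSF2, which can pair with HSF1, had -0.07 ± 0.09 (adjusted p = 0.58). RNA levels say nothing of HSF1 activity, which is set largely on the protein. Of the 17 members called lower that had a promoter window, 5 held a pentamer pair (29.4%), compared with 6 of the 17 tested but not called (35.3%) and 0 of the 3 called higher. CACGTG stood in 3 of the 17 called lower (17.6%), 1 of the 17 not called (5.88%) and 0 of the 3 called higher. The motif between HSPD1 and HSPE1 counts for both. These counts rest on the single window searched for each member.

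Ratios to HSPA8 set its decrease beside the changes of its partners. HSPA8 over DNAJB1 was 42.1 and 43.8 in vehicle and 21.9 and 19.7 in DHE libraries, and HSPA8 over HSPH1 was 17.3 and 17.5 in vehicle and 10.0 and 9.01 in DHE libraries. Relative to HSPA1B the shift was smaller, from 51.5 and 55.2 to 41.4 and 39.3. None of the 3 ratios overlapped between DHE and vehicle libraries. A ratio below vehicle was not particular to DHE, as all 3 were also below it in GFP RNA and NR4A1 RNA libraries. In these, HSPA8 over HSPA1B was 26.1 and 35.6 (GFP RNA) and 28.99 and 28.05 (NR4A1 RNA), lower than with DHE. HSPA8 over HSPH1 was 10.9 and 13.2 (GFP RNA) and 9.74 and 9.95 (NR4A1 RNA). HSPA8 over DNAJB1 was 26.5 and 33.5 (GFP RNA) and 24.8 and 27.2 (NR4A1 RNA), above the DHE values. With 2 libraries a side the smallest exact two-sided permutation p is 0.333, so the ratios were not tested.

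**Figure D4:**
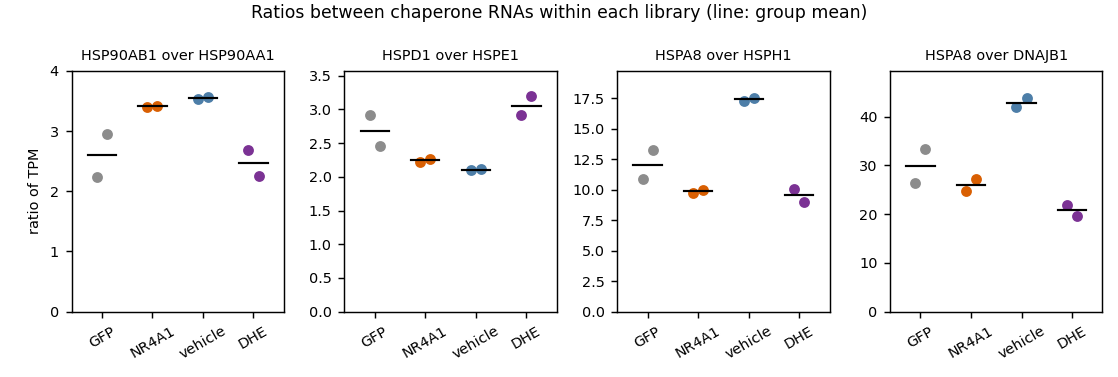
Ratio of TPM between pairs of chaperone genes within each of the 8 libraries (linear axes that start at 0; points are libraries, lines group means of 2), which does not depend on the scaling between libraries. DHE libraries have a lower HSP90AB1 over HSP90AA1, a higher HSPD1 over HSPE1 and a lower HSPA8 over HSPH1 and DNAJB1 than vehicle libraries, and GFP RNA libraries also differ from vehicle in all 4.

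Compared with GFP RNA, 1 of 41 members rose with forced expression of NR4A1 and 0 fell by limma, with 10 at an unadjusted p under 0.05. Among all 14367 genes 2.64% were called higher and 2.26% lower, with 4113 at an unadjusted p under 0.05. The members' counts are therefore near the background and say nothing particular of chaperones. The median log2 change was 0.03 for the members and -0.02 for all genes, with 23 members above 0 and 18 below. This balance turned with the GFP libraries: the members' median was -0.05 with 26 of 41 negative without GFP RNA replicate 1, and 0.15 with 13 negative without GFP RNA replicate 2. Scaled to equal totals without the listed ribosomal transcripts, the members' median was 0.25 with 6 negative (0.18 over all genes). It was -0.03 with 23 negative (-0.07 over all genes) when MIR663A and its neighbours were left out as well, a scaling chosen after seeing the data. Both NR4A1 RNA libraries lay below both GFP RNA libraries for 10 members and above for 9, compared with 32.1% and 28.8% of all genes. DNAJB2 read 1.61 and 2.11 scaled TPM in GFP RNA and 3.24 and 4.13 in NR4A1 RNA libraries (0.83 ± 0.17, adjusted p = 0.042). Its level is near the filter, and the call was lost in 13 of 23 alternatives that tested it. These included leaving out GFP RNA replicate 1, either NR4A1 RNA library, either vehicle library or DHE replicate 1.

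DNAJB4 read 4.22 and 4.18 scaled TPM in GFP RNA and 7.82 and 7.03 in NR4A1 RNA libraries, without overlap, but did not pass (0.75 ± 0.24, adjusted p = 0.11). It was called without DHE replicate 2, which made 2 calls, and in place of DNAJB2 without DHE replicate 1 and without GFP RNA replicate 1 and DHE replicate 2 together. DNAJA3 read 33.6 and 31.3 in GFP RNA and 25.2 and 26.1 in NR4A1 RNA libraries (-0.33 ± 0.07, adjusted p = 0.047), under the fold limit. FKBP5 had -0.52 ± 0.12 (adjusted p = 0.057) and was called without GFP RNA replicate 2. HSP90AA1 read 252 and 220.4 in GFP RNA and 190.0 and 192 in NR4A1 RNA libraries (-0.30, adjusted p = 0.084). TRAP1 had -0.28 (adjusted p = 0.060) and BAG1 -0.25 (adjusted p = 0.068). HSPA8 read 737 and 1000.4 in GFP RNA and 792 and 847 in NR4A1 RNA libraries, so both NR4A1 values lay between the GFP duplicates (-0.07 ± 0.16, adjusted p = 0.80).

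By class, TRiC and prefoldin had 0 calls and 0 members at an unadjusted p under 0.05 with NR4A1 RNA, with log2 changes of -0.01 to 0.33. HSPE1 read 100.3 and 129 scaled TPM in GFP RNA and 131 and 129 in NR4A1 RNA libraries, HSPD1 292 and 318 against 293 and 293, HSPB1 64.0 and 59.0 against 56.2 and 66.2, and HSF1 33.6 and 28.8 against 27.6 and 27.5. Of these, HSPD1, HSPB1 and HSPE1 overlapped between the groups. PFDN2 read 38.5 and 42.05 against 38.8 and 41.3, and HSPA1B 28.3 and 28.1 against 27.3 and 30.2. GFP duplicates differed by a median of 0.19 log2 among the members, and NR4A1 duplicates by 0.04. GFP RNA replicate 1, the library with the most MIR663A, was the lower of its pair for 31 of the 41 members (39 on TPM as deposited). The part of this in the comparison was not tested beyond leaving the library out.

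The controls of the experiments were themselves apart. Members in GFP RNA libraries had a median log2 difference of -0.20 from vehicle, compared with 0.00 over all genes, and 33 of 41 were negative. The members' median was -0.13 without GFP RNA replicate 1 and -0.26 without GFP RNA replicate 2. Both GFP RNA libraries lay below both vehicle libraries for 32 members, compared with 27.7% of all genes, and above for 6, compared with 27%. However, 0 members were called in either direction by limma, with 15 at an unadjusted p under 0.05. Among all 14367 genes 0.0139% were called higher and 0 lower, with 2692 at an unadjusted p under 0.05. HSPA8 had -0.68 (adjusted p = 0.18) and was called without GFP RNA replicate 2. HSPE1 had -0.59 (adjusted p = 0.21). Electroporation, GFP RNA and DMSO differ between these groups and cannot be told apart. The vehicle group held the highest mean for 29 of 41 members and the DHE group the lowest for 32.

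The 2 treatments were compared in the same fit, as the DHE effect minus the NR4A1 effect, at an adjusted p under 0.05 with no fold limit. For 28 of 41 members this difference was negative and passed, and 0 passed in the other direction, with 32 at an unadjusted p under 0.05. Among all genes 10.9% passed in the negative and 8.03% in the positive direction, with 5218 of 14367 at an unadjusted p under 0.05. The median was -0.56 for the members and 0.02 for all genes. HSPE1 (-1.34), PFDN6 (-1.23) and PFDN2 (-1.20) had the largest differences. Each of these values also contains the difference between the controls. GFP RNA against vehicle was negative for 33 members and positive for 8, with -0.59 for HSPE1 and -0.68 for HSPA8. The part of the controls in the calls was not tested. DNAJB2 (0.55, adjusted p = 0.17) and DNAJB4 (0.26, adjusted p = 0.61) did not pass, and the SE of these differences, 0.25 and 0.34, leaves their sizes poorly fixed. The count varied between settings. It was 4 and 2 without NR4A1 RNA replicate 1 or 2, 2 without either vehicle library, 10 without DHE replicate 2 (with DNAJB4 then called in the positive direction), 5 with the replicate number as a block, and 28 without GFP RNA replicate 1 and DHE replicate 2 together. DNAJA3 alone passed in all 22 alternatives run.

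Other chaperones and folding helpers, numbered 97 genes, of which 83 were tested. With DHE 13 of these fell and 2 rose, compared with 10.1% and 9.07% of all genes, with a median of -0.14. The 6 called genes with the smallest p follow. GRPEL1, the exchange factor of HSPA9, fell by 1.49 on the log2 scale (adjusted p = 0.00077), from 44.1 and 44.2 scaled TPM in vehicle to 17.2 and 13.7 in DHE libraries. TIMM44, which tethers HSPA9 to the import channel, fell by 1.14 (adjusted p = 0.00012), from 58.4 and 55.4 to 25.7 and 25.3. DNAJC11, a mitochondrial J protein, fell by 0.77 (adjusted p = 0.00062). RUVBL1, an ATPase of the R2TP co-chaperone, fell by 1.19 (adjusted p = 0.00086), and ZNHIT6, an assembly factor of small nucleolar ribonucleoproteins, by 0.91 (adjusted p = 0.00045). DNAJC1, a J protein of the endoplasmic reticulum, rose from 17.7 and 18.2 to 39.5 and 32.8 (0.98, adjusted p = 0.0011).

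With NR4A1 RNA, 2 of these 83 genes rose and 0 fell, with 20 at an unadjusted p under 0.05. Of all 14367 genes, 2.64% were called higher and 2.26% lower, with 4113 at an unadjusted p under 0.05. HSPA13, an HSP70 of the secretory pathway, rose from 9.86 and 11.2 scaled TPM in GFP RNA to 26.4 and 27.2 in NR4A1 RNA libraries (1.31 ± 0.10, adjusted p = 0.0023). DNAJC3, a J protein of the endoplasmic reticulum that restrains the kinase PERK, rose from 20.6 and 23.3 to 35.8 and 35.8 (0.70 ± 0.07, adjusted p = 0.0060). In DHE libraries HSPA13 read 16.7 and 14.1 and DNAJC3 31.2 and 31.2, against 10.9 and 10.7 and 21.5 and 22.3 in vehicle.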

How the data were processed

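Total RNA from MOLM-14 cells (8 libraries) was depleted of ribosomal RNA and sequenced as strand-marked paired ends. The authors trimmed reads with Trim Galore and quantified Gencode transcripts with Salmon 0.11.0. They deposited TPM, which carry no read counts and therefore no depth. Fold changes and p-values that the authors made with DESeq2 stand beside them and were not used. The ChIP-seq files were not used.

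A repeated symbol (1449 entries) went to the entry with the highest mean. Libraries were scaled by the median of ratios over genes that reached 1 TPM in all of them. The fit in limma 3.58.1 (R 4.3.3) took log2(scaled TPM + 0.5) of the 14367 genes that reached 1 TPM in 2 or more libraries, with 4 group means and a variance trend (4 residual and 2.07 prior degrees of freedom). Log2 changes of genes with levels near the pseudocount of 0.5 are understated. P-values were adjusted over all genes tested by Benjamini-Hochberg, and calls required an adjusted p under 0.05 and, except for the difference between treatments, more than 1.5-fold. Comparisons that share libraries are not independent. The steps were tested on simulated data.

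Values per library are given for every member called in a comparison of 2 groups and for HSPA1A, HSPA1B, HSPB1, DNAJB1, BAG3, HSPH1, HSP90AA1, HSP90AB1, HSPA8, HSPD1, HSPE1 and HSF1. Of the other pathway genes, up to 6 called in each treatment with the smallest p are named. Members and lists were chosen with earlier results of these data known. Promoter sequences are from RefSeq. Alternatives changed scaling, pseudocount, filter, weights, block, fold limit and libraries. Several members (HSPA8, HSP90AB1, HSPD1, HSPE1 and TRiC subunits among them) have pseudogene copies that can share reads.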

Additional observations from a re-analysis of the deposited data

Results flagged for a closer look

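The DHE effect differed from the NR4A1 effect, by the interaction term in limma at an adjusted p under 0.05, for 28 of the 41 members, and each of the following values is that difference in log2 units. Among all genes 10.9% passed in this, negative, direction and 8.03% in the positive one. Most of these calls depended on the setting: 6 passed with no rescaling, 1 with equal totals without ribosomal transcripts, 5 with the replicate block and 2 to 4 without an NR4A1 RNA or a vehicle library, and DNAJA3 alone passed in all 22 alternatives. In the HSP70 class they were -0.65 for HSPA1B, -0.55 for HSPA4, -0.98 for HSPA8, -0.60 for HSPA14, -0.39 for HSPH1, -0.53 for BAG1 and -0.57 for BAG2. In the HSP90 class they were -0.70 for HSP90AB1, -0.52 for CHORDC1 and -0.75 for FKBP4. J proteins gave -0.70 for DNAJA1, -0.77 for DNAJA2, -0.89 for DNAJA3 and -0.95 for DNAJC2.

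TRiC and prefoldin gave -0.70 for CCT2, -0.68 for CCT3, -0.56 for CCT4, -0.95 for CCT5, -0.59 for CCT7, -0.85 for CCT8, -1.20 for PFDN2 and -1.23 for PFDN6. Mitochondrial members gave -0.67 for HSPA9, -0.56 for HSPD1, -1.34 for HSPE1 and -0.45 for TRAP1. HSPB1 gave -0.53 and HSF1 gave -0.48. Adjusted p ranged from 0.0027 for PFDN2 to 0.0495 for HSPH1. Every value in this list also contains the difference between the GFP RNA and vehicle controls, whose median over the members tested was -0.20.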

How the results depend on the processing

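No direction of a called member reversed in any of the 24 alternatives. With DHE the 20 lower calls became 13 with upper quartile scaling, 11 with equal totals after leaving out the listed ribosomal transcripts, and 31 with no fold limit. Leaving out single libraries gave 12 to 23 lower and 1 to 3 higher calls. With NR4A1 RNA the 1 higher call became 0 with no rescaling, with equal totals without ribosomal transcripts, with no filter, with a filter of 5 TPM (which DNAJB2 does not pass), with only the 4 libraries compared, with array quality weights and with the replicate block. Single libraries left out gave 0 to 2 higher and 0 to 1 lower calls, and 1 was lower with no fold limit (DNAJA3). The 1 higher call was DNAJB4 in place of DNAJB2 without DHE replicate 1. For GFP RNA against vehicle this gave 0 to 1 lower calls.

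For the difference between treatments, the 28 negative calls became 6 with no rescaling, 1 with equal totals without ribosomal transcripts, 10 with no filter and 5 with the replicate block, and 2 to 28 with single libraries left out. In the positive direction 0 became 1 (DNAJB4) without GFP RNA replicate 1 and DHE replicate 2 together, and 0 to 1 with single libraries left out. The causes were not tested. Duplicate differences had r = -0.01 for GFP with NR4A1 RNA and 0.02 for vehicle with DHE, across 14367 genes, which are not independent. Across the 41 members r was -0.04 and -0.32. With a single duplicate difference per group, these values cannot show whether same-numbered libraries were handled together. The replicate block left the 20 lower and 3 higher calls of DHE at 20 and 3.

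The scaling without listed ribosomal transcripts moved the median of all genes with NR4A1 RNA to 0.18 and that of the members to 0.25, and leaving out MIR663A and its neighbours as well moved them to -0.07 and -0.03. For GFP RNA against vehicle the members' median ranged from -0.42 (all genes -0.20) to -0.14 (all genes 0.06) under these scalings. The first of these moved the split with NR4A1 RNA of all calls from 380 higher and 325 lower to 253 and 70. With DHE the members' median stayed between -0.59 and -0.52 under the 5 scalings. The scaling without MIR663A and its neighbours (15 lower calls with DHE, 24 negative differences) and the sum of HSPA1A and HSPA1B (20 and 28) were chosen after seeing the data. A library left out leaves 1 in its group, whose spread is then assumed to be that of the others. With no counts and 2 libraries a group, small changes in scarce RNAs such as DNAJB2 could not be resolved.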
